A study of Mus musculus with 3 samples.

Results

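The genes described here are 10 heat shock chaperones, *Hspa1a*, *Hspa1b*, *Dnajb1*, *Hsph1*, *Hspb1*, *Hsp90aa1*, *Hsp90ab1*, *Hspa8*, *Hspd1* and *Hspe1*, taken by name from the 17226 genes listed in 3 single-cell RNA-seq libraries of mouse pancreatic islets. All 10 were listed in each library. The islets came from adult C57/Bl6 mice, were dissociated with Accutase and sorted by flow cytometry for live cells before 10X capture. One library was labelled wild type (WT) and was made from 300 islets of 1 mouse. Each mutant library was made from 300 islets pooled from 2 mice, 1 week or 5 weeks after inactivation of *Taf4*, which encodes a subunit of the general transcription factor TFIID. In the mutants floxed *Taf4* alleles were recombined by an *Ins1*::Cre-ERT2 transgene and tamoxifen, so the deletion is directed to beta cells. Whether cells of the alpha and delta classes in the mutants kept the gene was not tested here. The study reports that glucagon-positive cells of mutant islets still stained for Taf4. From lineage tracing at a later time it reports that most glucagon-positive cells inside mutant islets came from beta cells. The study describes its controls as *Taf4*+/+ animals with the same transgene and tamoxifen, whereas the label of the WT library gives the genotype only.

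Heat shock proteins bind unfolded proteins and either hold them in solution or help them to fold. Transcription of the inducible members is switched on by heat shock factor HSF1, which is held inactive by chaperones in resting cells and binds inverted repeats of GAA once unfolded protein accumulates. Beta cells make and fold very large amounts of proinsulin, mainly in the endoplasmic reticulum (ER), which has its own chaperones, while the genes described here serve the cytosol, the nucleus and the mitochondria. The same genes are also known to be switched on when tissue is cut, warmed or dissociated with enzymes. Among them *Hspa1a* and *Hspa1b* encode the inducible HSP70, *Hspa8* the constitutive HSP70, *Dnajb1* an HSP40 co-chaperone that delivers clients to HSP70, and *Hsph1* an HSP110 that exchanges its nucleotide. *Hspb1* encodes a small heat shock protein, *Hsp90aa1* and *Hsp90ab1* the inducible and constitutive cytosolic HSP90, and *Hspd1* and *Hspe1* the mitochondrial chaperonin HSP60 with its lid HSP10.

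Because 1 library was made for each condition, genotype, animal and library cannot be told apart and no test between conditions was possible. The intervals given are 95% intervals for counting error only. Cells were classed by the share of their transcripts that came from *Ins2*, *Gcg* or *Sst*, with lower minima at 1 week than in the other libraries. The library labelled WT gave 8269 beta, 2772 alpha and 619 delta cells, the 1 week library 561, 172 and 37, and the 5 weeks library 5557, 2938 and 1242. Depth differed widely, with a median of 1656 UMIs (unique transcript tags) per beta cell in the library labelled WT, 24764 at 1 week and 3899 at 5 weeks. Among the classes the delta class had the fewest UMIs per cell in every library, with medians of 622, 17687 and 1146.5, and it held the highest summed level of both PP cell markers in every library. Of 8 listed beta cell markers 7, 6 and 7 were highest in the beta class (library labelled WT, 1 week and 5 weeks), of 8 alpha cell markers 7, 6 and 7 in the alpha class, and all 7 delta cell markers in the delta class. At 1 week 1415 of 2295 barcodes were under 5000 UMIs and were left out of the classes. The 3 libraries shared 2, 33 and 5 cell barcodes in pairs. The library labelled WT was stated to come from a male mouse, yet it held 17357 UMIs of *Xist*, expressed from the inactive X chromosome of females, and 0 of the Y-linked *Ddx3y*, whereas the mutant libraries held 1488 and 1349 UMIs of *Ddx3y* and 17 and 11 of *Xist*. *Taf4* itself gave 75 UMIs in WT beta cells, 113 at 1 week and 97 at 5 weeks, but 3′ tags can lie outside the deleted exons and this checks nothing. The 10 listed acinar markers also moved with the libraries: their summed level in beta, alpha and delta cells was 4971, 11007 and 14845 CPM (UMIs of a gene per 1000000 UMIs of the class) in the library labelled WT, 15.9, 7.41 and 6.43 at 1 week with 0, 3 and 7 of them at 0, and 565, 1679 and 2586 at 5 weeks. Markers of other cells had summed levels over the 9 sums of class and library of 104 to 444 CPM for 4 ductal, 8.78 to 117 for 6 macrophage, 2.49 to 38.3 for 5 endothelial, 0 to 28.3 for 4 red blood cell and 0 to 5.38 for 4 mesenchymal markers. No islet cell type is known to lack the heat shock genes, so the level given by free RNA could not be read for them, and its part in the values below was not tested.

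Promoters of 7 of the 10 genes were in the RefSeq table of windows from 250 bases before to 50 bases after the start (build GRCm38.p6). They were searched for pairs of heat shock elements, GAANNTTC or TTCNNGAA, and for triples, GAANNTTC followed by NNGAA or TTCNNGAA followed by NNTTC, each of which contains overlapping pairs. Pairs read the same on both strands, and a triple of one kind is a triple of the other kind on the opposite strand. At least 1 pair was present for 6 of the 7 genes, against 17.0% of all 27025 genes with a window, and a triple for 3 of the 7, against 0.662% of all genes. The 7 genes are not separate sequences throughout. The windows of *Hspa1a* and *Hspa1b* are near-identical and *Hspd1* and *Hspe1* share 1 stretch, so these counts hold the same stretch more than once. Neither window of *Dnajb1* held a pair. The stretches with the motifs are shown because they set apart the genes with 1 or 2 pairs from those with a triple. Capitals mark the matches, and every stretch is written 5′ to 3′ on the strand of its gene.
Hspa1a, chr17:34972238-34972275, minus strand: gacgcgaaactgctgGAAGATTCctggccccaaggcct
Hspa1b, chr17:34959320-34959357, minus strand: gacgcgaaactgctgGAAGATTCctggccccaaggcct
Hspb1, chr5:135887787-135887844, plus strand: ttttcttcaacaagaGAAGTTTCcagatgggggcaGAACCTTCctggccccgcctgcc
Hsph1, chr5:149636287-149636384, minus strand: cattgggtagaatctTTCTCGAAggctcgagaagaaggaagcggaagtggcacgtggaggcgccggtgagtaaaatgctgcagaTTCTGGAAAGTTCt
Hspd1, chr1:55088044-55088091, minus strand: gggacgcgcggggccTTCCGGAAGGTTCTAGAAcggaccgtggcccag
Hspe1, chr1:55088044-55088091, plus strand: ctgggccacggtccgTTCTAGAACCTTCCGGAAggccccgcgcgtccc

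*Hspa1a* and *Hspa1b* showed the same stretch, and their 300-base windows were identical at 296 positions. Their transcripts are near-identical too, so how 3′ tags were divided between the copies is uncertain. *Hspd1* and *Hspe1* lie head to head, their annotated starts overlap by 96 bases, and the stretch shown is 1 stretch read from either strand. A match is a description of these letters, and the absence of one in the *Dnajb1* windows says nothing of the factor. *Hsp90aa1*, *Hsp90ab1* and *Hspa8* had no entry in that table.

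On GRCm38 the genes lie at chr17:34969359-34972156 (*Hspa1a*), chr17:34956429-34959238 (*Hspa1b*), chr8:83608175-83612653 (*Dnajb1*), chr5:149616843-149636498 (*Hsph1*), chr5:135887919-135889563 (*Hspb1*), chr12:110691036-110696395 (*Hsp90aa1*), chr17:45567778-45573261 (*Hsp90ab1*), chr9:40801276-40805202 (*Hspa8*), chr1:55077833-55088243 (*Hspd1*) and chr1:55088148-55091317 (*Hspe1*). Levels are given as CPM, with UMIs summed over the cells of a class. Over the 60 values of the library labelled WT and the 5 weeks library, the interval reached a median of 3.24% from the value and at most 20.03%, for *Hspd1* in WT delta cells. All 10 genes were highest in delta cells at 5 weeks. For 6 of 10 genes the lowest of the 9 values was in a 1 week class, and for *Hsp90aa1*, *Hsp90ab1*, *Hspa8* and *Hspd1* it was in WT beta cells. Intervals of neighbours in the order overlapped for 21 of 80 neighbouring pairs.

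**Figure D1:**
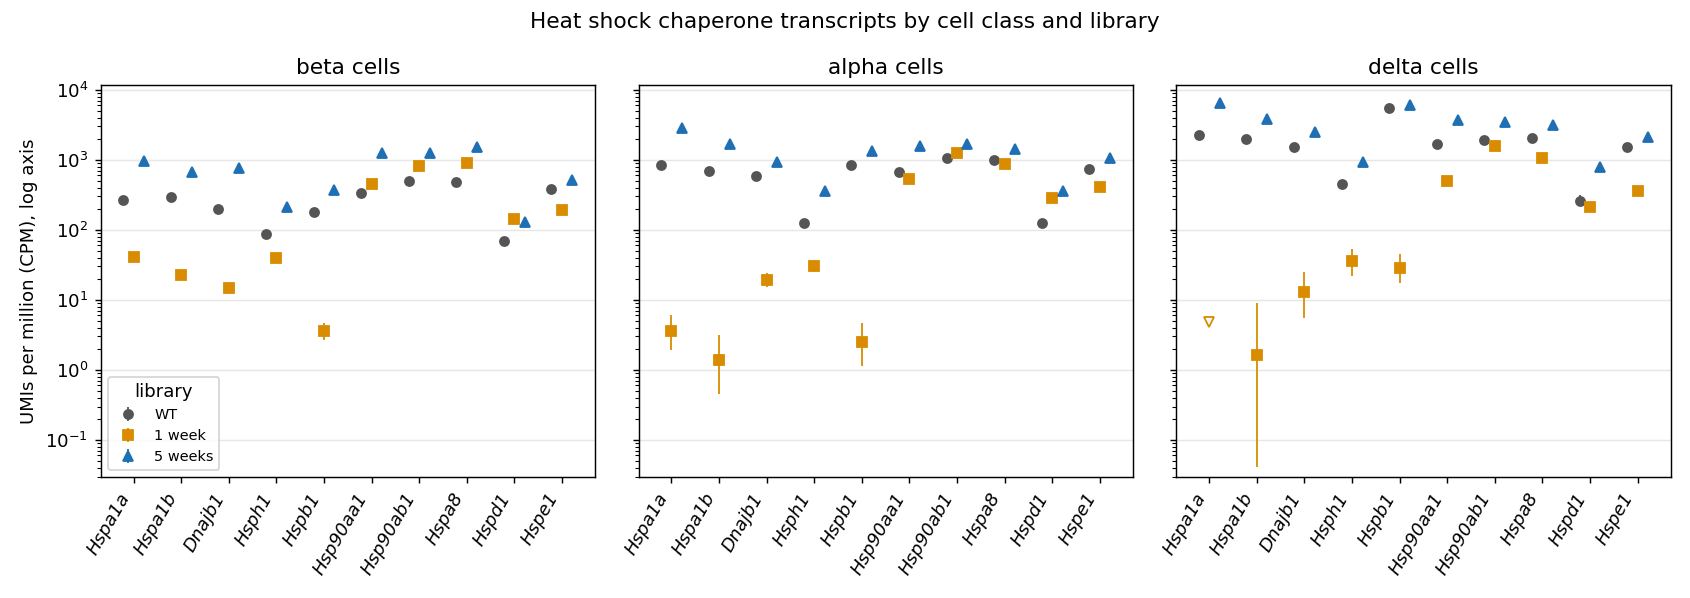
Each panel is 1 cell class and shows the CPM (log axis) of the 10 genes in the library labelled WT (grey circles), at 1 week (orange squares) and at 5 weeks (blue triangles), with bars for the 95% counting interval and an open triangle for a gene with 0 UMIs, drawn at the level of 3 UMIs. At 1 week the 5 genes on the left sit below their levels in the other libraries. *Hsph1* in beta cells is the closest to WT of these, at 39.2 against 87.9 CPM. In each class every 5 weeks point lies above the WT point.

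*Hspa1a*, the inducible HSP70, stood at 266 CPM in beta cells, 831 CPM in alpha cells and 2288 CPM in delta cells in the library labelled WT. At 5 weeks the gene stood at 957 CPM in beta cells, 2836 CPM in alpha cells and 6527 CPM in delta cells. The 1 week values were 40.6 CPM in beta cells (608 UMIs), 3.57 CPM in alpha cells (13 UMIs, 1.90 to 6.10) and 0 UMIs in 37 delta cells, where 3 UMIs would have been 4.82 CPM. The 5 weeks value was thus the highest and the 1 week value the lowest in each class. *Hspa1b* followed with 290.0 CPM in beta cells, 695 CPM in alpha cells and 1968 CPM in delta cells in the library labelled WT and with 660.3 CPM in beta cells, 1708 CPM in alpha cells and 3798 CPM in delta cells at 5 weeks. At 1 week it gave 22.7 CPM in beta cells, 1.37 CPM in alpha cells from 5 UMIs and 1.61 CPM in delta cells from 1 UMI, and the last of these intervals ran from 0.0407 to 8.96. Of the UMIs of both copies, *Hspa1a* took 47.8% (46.8 to 48.8%) in WT beta cells, 59.2% (58.7 to 59.6%) at 5 weeks and 64.1% (61.0 to 67.2%) at 1 week. In alpha and delta cells this share was 54.4% and 53.8% in the library labelled WT and 62.4% and 63.2% at 5 weeks, so in each class *Hspa1a* took more of the pair at 5 weeks.

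The HSP40 co-chaperone *Dnajb1* measured 198 CPM in beta cells, 588 CPM in alpha cells and 1530.4 CPM in delta cells in the library labelled WT. It measured 14.96, 19.5 and 12.9 CPM in the same order at 1 week, from 224, 71 and 8 UMIs, and 772, 939 and 2456 CPM at 5 weeks. The 3 intervals at 1 week overlapped, so the classes could not be ordered there. *Hsph1*, the HSP110, measured 87.9, 126 and 454 CPM in the library labelled WT, 39.2, 30.5 and 35.4 CPM at 1 week, and 212, 363 and 926 CPM at 5 weeks, again in beta, alpha and delta cells. *Hspb1*, the small heat shock protein, had the largest ratio of delta to beta cells among the 10 genes in every library. Its level was 181 CPM in beta cells, 843 CPM in alpha cells and 5529 CPM in delta cells in the library labelled WT and 369, 1336 and 5974 CPM at 5 weeks. At 1 week it was 3.61 CPM in beta cells (54 UMIs), 2.47 CPM in alpha cells (9 UMIs) and 28.9 CPM in delta cells (18 UMIs). The delta level was the highest of the 3 classes in each library.

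The HSP90 genes were not lower at 1 week than in the library labelled WT in beta cells, on the scale of all UMIs. *Hsp90aa1* measured 341 CPM in beta cells, 679.9 CPM in alpha cells and 1701 CPM in delta cells in the library labelled WT, 456, 525 and 505 CPM at 1 week, and 1247, 1579.9 and 3708 CPM at 5 weeks. *Hsp90ab1* measured 501, 1065 and 1943 CPM in the library labelled WT, 815, 1268 and 1558 CPM at 1 week, and 1236, 1677 and 3511 CPM at 5 weeks. The balance within the pair moved with the library. *Hsp90aa1*, the inducible form, took 40.5%, 39.0% and 46.7% of the UMIs of the pair in WT beta, alpha and delta cells, 35.9%, 29.3% and 24.5% at 1 week, and 50.2%, 48.5% and 51.4% at 5 weeks. In each class the 3 counting intervals of this share were apart. *Hspa8*, the constitutive HSP70, measured 484, 1008 and 2048 CPM in the library labelled WT, 894, 867 and 1071 CPM at 1 week and 1512, 1439.8 and 3164 CPM at 5 weeks. Within the 1 week library the intervals of its beta and alpha levels overlapped, whereas in the library labelled WT the delta level was 4.23 times the beta level.

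The genes of the mitochondrial pair differed from each other at 1 week. *Hspd1* (HSP60) measured 70.3 CPM in beta cells, 126 CPM in alpha cells and 262 CPM in delta cells in the library labelled WT, 141, 286 and 212 CPM at 1 week, and 131, 359.7 and 795 CPM at 5 weeks. *Hspe1* (HSP10) measured 379, 734 and 1546 CPM, then 195, 409 and 359 CPM, and 521, 1049 and 2127 CPM in the same libraries. At 1 week *Hspe1* was therefore lower than in the library labelled WT in all 3 classes, while *Hspd1* was higher in beta and alpha cells. Of the UMIs of the pair, *Hspd1* took 15.7% (14.8 to 16.5%), 14.7% (13.1 to 16.3%) and 14.5% (12.1 to 17.1%) in WT beta, alpha and delta cells. The share was 42.0% (40.6 to 43.4%), 41.2% (39.3 to 43.1%) and 37.2% (32.1 to 42.4%) at 1 week and 20.1% (19.5 to 20.6%), 25.5% (24.6 to 26.5%) and 27.2% (26.0 to 28.5%) at 5 weeks. It was nearly equal in the 3 classes of the library labelled WT and stood apart between libraries. The pair shares the stretch of promoter shown above. The genes overlap at their annotated starts, on opposite strands and away from their 3′ ends, and how reads over that overlap were assigned is not known. The cause of the differences in share was not tested.

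Whether beta cells had altered chaperone levels 1 week after *Taf4* inactivation was asked by setting the 1 week library against the library labelled WT. A 2-fold ratio was the limit for calling a gene, for genes whose UMIs in the compared groups summed to 100 or more. *Hspa1a*, *Hspa1b*, *Dnajb1*, *Hsph1* and *Hspb1* are called the 5 inducible genes here, and *Hsp90aa1*, the inducible HSP90, is not among them. In beta cells these 5 genes were lower by 2-fold or more, as were 2.46% of all 9226 genes compared. *Hsp90aa1* was 1.34-fold higher, under the limit. The 1 member past the limit upward was *Hspd1*, at 2.01-fold, as were 57.7% of all genes. With each cell thinned to 500 UMIs 4 of the 5 inducible genes stayed past 2-fold, *Hsph1* being at a log2 ratio of -0.45 and *Hspa1b* at -1.95 in place of -3.68, and with a mean over cells 4 genes were lower as well. *Hspa1a* was 6.54-fold lower (95% interval 6.01 to 7.13), *Dnajb1* 13.2-fold lower (95% interval 11.5 to 15.2) and *Hspb1* 50.1-fold lower (95% interval 38.3 to 66.9). The median log2 ratio was -1.06 over the 10 genes and 1.15 over all genes, so the ratios of all genes as a set lay high at 1 week. Hormone UMIs made up 68.0% of the UMIs of WT beta cells and 42.8% at 1 week, and the cause of the shift was not tested. The beta class took cells from 20% *Ins2* in the library labelled WT and from 5% at 1 week, so these shares come from unlike class rules. With the 1 week classes set by the limits of the other libraries in all barcodes, 0 of the 10 genes were higher and 6 lower in beta cells. *Hsp90aa1*, *Hsp90ab1* and *Hspa8* had log2 ratios of 0.42, 0.70 and 0.88, but -0.42, -0.14 and 0.05 with hormone UMIs left out of the totals, so the direction of both HSP90 genes depended on the scale. On that scale the median of all genes was 0.31 and the inducible genes lay still lower, with -3.55 for *Hspa1a* and -6.48 for *Hspb1*. *Hspd1* was then no longer past 2-fold, at 0.17, and *Hspe1* was, at -1.80 in place of -0.96, which gave 0 genes higher and 6 lower. For this scale, the like class limits, the thinned cells and the mean over cells, the shares of all genes past 2-fold are not given.

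Alpha and delta cells, to which the Cre transgene is not directed, showed the same low inducible genes at 1 week. In alpha cells 5 of 10 were lower, the same inducible genes, against 4.88% of all 5226 genes compared, and 1 was higher, *Hspd1*, against 32.4%. *Hspa1a* was 233-fold lower in alpha cells (95% interval 136 to 438) and *Hspb1* 341-fold lower (95% interval 179 to 748). In delta cells 7 of 10 were lower, against 5.42% of all 1328 genes compared, and none was higher, against 20.4%. *Hspa1a*, with its 0 UMIs set to 3, was there 474-fold lower, and its 95% counting bound was at 385-fold. *Hsp90aa1* was 3.37-fold (95% interval 2.95 to 3.86) and *Hspe1* 4.31-fold lower (95% interval 3.70 to 5.04). The median log2 ratio of the 10 genes was -1.44 in alpha and -2.89 in delta cells, and of all genes 0.63 and 0.33. With hormone UMIs left out, 0 genes were higher and 6 lower in alpha cells, and 0 and 8 in delta cells. In alpha cells *Hspd1* was then at a log2 ratio of 0.85 and *Hspe1* at -1.18. The shares of all genes past 2-fold on that scale are not given. Most *Hspa1a* UMIs of 1 week beta cells came from the few cells described further on, and the alpha and delta classes held no such cells.

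At 5 weeks all 10 genes stood above the library labelled WT in all 3 classes by their point values. In beta cells 8 of 10 genes were 2-fold or more higher than in the library labelled WT and none was lower, against 6.09% and 4.38% of all 9148 genes compared. *Dnajb1* was 3.90-fold higher (95% interval 3.76 to 4.05), *Hsp90aa1* 3.66-fold (95% interval 3.55 to 3.76), *Hspa1a* 3.60-fold (95% interval 3.49 to 3.72) and *Hspa8* 3.12-fold (95% interval 3.05 to 3.20). *Hsp90ab1*, *Hsph1*, *Hspa1b* and *Hspb1* lay between 2.04 and 2.47-fold, and the mitochondrial pair was under the limit, with 1.86-fold for *Hspd1* and 1.38-fold for *Hspe1*. The lower bound for *Hspb1* was under 2-fold (95% interval 1.96 to 2.13), and with hormone UMIs left out it was at a log2 ratio of 0.97. The median log2 ratio was 1.29 over the 10 genes and 0.16 over all genes.

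In alpha cells at 5 weeks 5 of 10 genes were higher, *Hspa1a*, *Hsph1*, *Hspd1*, *Hspa1b* and *Hsp90aa1*, against 2.82% of all 5358 genes compared. The ratios were 3.41-fold for *Hspa1a*, 2.89-fold for *Hsph1* and 2.86-fold for *Hspd1*, and 1.60-fold for *Dnajb1*. In delta cells 4 of 10 were higher, *Hspd1*, *Hspa1a*, *Hsp90aa1* and *Hsph1*, against 4.87% of all 2362 genes compared, with 3.03-fold for *Hspd1* (95% interval 2.50 to 3.70) and 2.85-fold for *Hspa1a* (95% interval 2.67 to 3.05). None of the 10 was lower, against 1.47% of all genes in alpha cells and 1.57% in delta cells. *Hspb1*, already high in WT delta cells, was at 1.08-fold there (95% interval 1.03 to 1.13). The median log2 ratio of the 10 genes was 0.95 in alpha and 0.90 in delta cells, beside 0.05 and 0.10 for all genes. The ratio of *Hspd1* was lowest and that of *Hspa8* highest in beta cells among the 3 classes, and the difference between classes was not tested. With a limit of 1.5-fold 8 genes were higher in alpha cells and 8 in delta cells. With the cells that met more than 1 class rule counted in each class, 2 genes passed 2-fold in delta cells. The shares of all genes are not given for the 1.5-fold limit or for this way of counting cells.

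**Figure D2:**
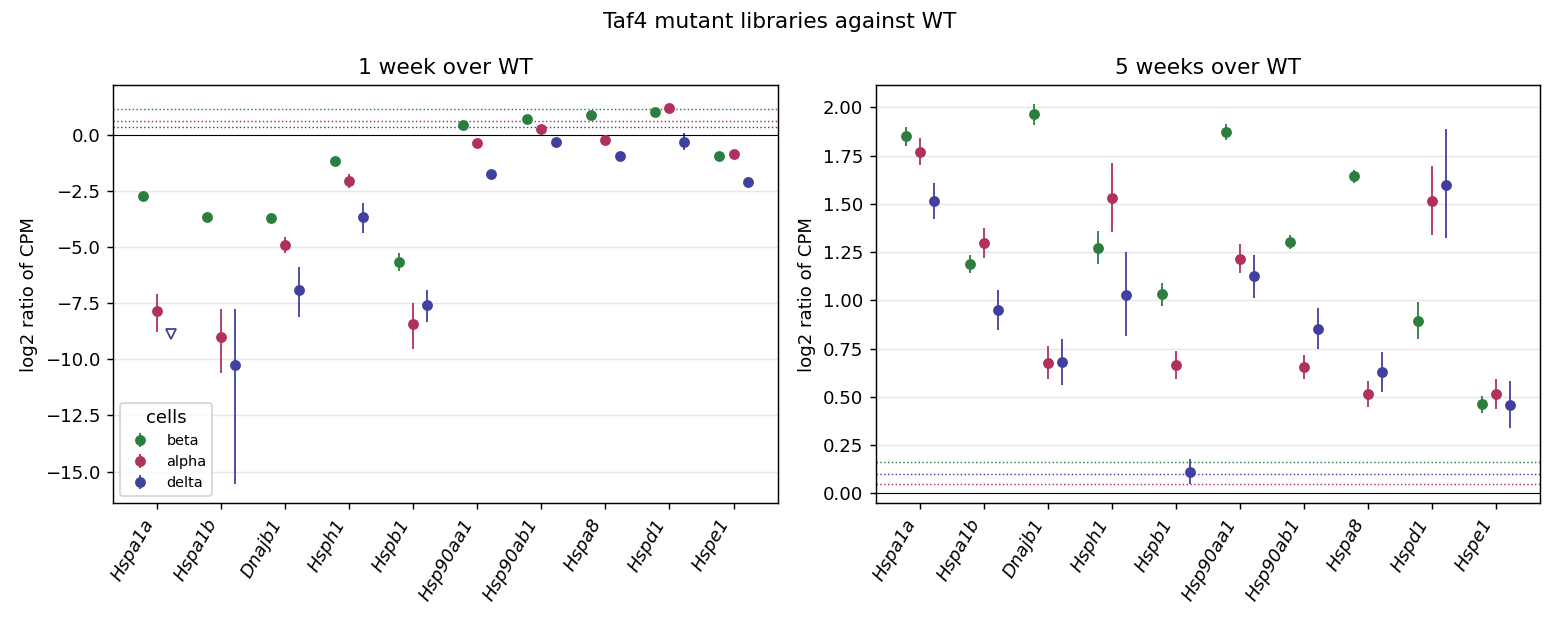
The log2 ratio of CPM of each gene against the library labelled WT is plotted for the 1 week library (left) and the 5 weeks library (right, on its own scale) in beta (green), alpha (red) and delta (blue) cells, with bars for the 95% counting interval, an open triangle for a bound from 3 UMIs and dotted lines for the median of all genes in each class. The 5 inducible genes lie below every dotted line at 1 week, and at 5 weeks all points lie above 0.

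The contrast between the mutant libraries does not involve the library labelled WT. From 1 week to 5 weeks 7 of 10 genes were higher in beta cells and none was lower, against 1.8% and 49.5% of all 9680 genes compared. In alpha cells 7 were higher and none lower, against 5.63% and 26.3% of 6642 genes, and in delta cells all 10 were higher, against 5.01% of 2852 genes (11.2% lower). *Hspb1* was 102-fold higher at 5 weeks in beta cells (95% interval 78.4 to 136), *Dnajb1* 51.6-fold (95% interval 45.2 to 59.1) and *Hspa1a* 23.6-fold (95% interval 21.7 to 25.6). *Hsp90ab1* and *Hspa8* were under the limit, at 1.52 and 1.69-fold, and *Hspd1* was at a log2 ratio of -0.11 (95% interval -0.19 to -0.03), which was 0.66 with hormone UMIs left out. On that scale *Hsp90ab1* and *Hspa8* passed 2-fold as well, at log2 ratios of 1.37 and 1.53, so that 9 of 10 genes were higher. The median log2 ratio of all genes in beta cells was then -0.22 in place of -0.99, and their share past 2-fold on that scale is not given. The comparison of 5 weeks with 1 week shares libraries with the other contrasts and is no independent count.

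Within each library the classes were compared next, since they were dissociated, sorted and captured together. In the library labelled WT all 10 genes were 2-fold or more higher in delta than in beta cells, as were 46.7% of all 6306 genes compared, and 6 of 10 were higher in alpha than in beta cells, as were 20.6% of 6832 genes. None of the 10 was lower in delta or alpha cells, against 2.78% and 4.48% of all genes. *Hspb1* was 30.6-fold higher in delta than in beta cells (95% interval 29.0 to 32.3), *Hspa1a* 8.61-fold and *Dnajb1* 7.73-fold, whereas *Hspd1* was 3.73-fold higher. At 5 weeks all 10 were higher in delta cells, against 51.1% of 8437 genes, and 5 in alpha cells, against 20.4% of 8888 genes. None was lower, against 1.52% and 3.27%, with 16.2-fold for *Hspb1* in delta cells (95% interval 15.7 to 16.6). The median log2 ratio of delta over beta cells was 2.34 for the 10 genes and 0.95 for all genes in the library labelled WT, and 2.08 and 1.02 at 5 weeks.

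Insulin transcripts fill a large part of the beta cell total, so the scale mattered here. Hormone UMIs made up 68.0%, 41.5% and 32.9% of the UMIs of WT beta, alpha and delta cells. With them left out, 1 of 10 genes, *Hspb1*, stayed 2-fold or more higher in alpha than in beta cells in the library labelled WT, and 1 at 5 weeks, also *Hspb1*. *Hsph1* and *Hspd1* then turned to -0.36 and -0.03 on the log2 scale in the library labelled WT, and at 5 weeks *Dnajb1*, *Hsp90aa1* and *Hsp90ab1* turned to -0.38, -0.32 and -0.22. The delta cell levels stayed above the beta cell levels for all 10 genes, with 7 past 2-fold in the library labelled WT and 5 at 5 weeks, *Hspa8* at a log2 ratio of 0.02 at 5 weeks and *Hspb1* at log2 ratios of 3.87 and 2.97 in WT and 5 weeks. The median log2 ratio of delta over beta cells of all genes was then -0.12 in the library labelled WT and -0.03 at 5 weeks. The shares of all genes past 2-fold on that scale are not given. The acinar markers given above were also highest in the delta class of both libraries.

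At 1 week the order of classes was kept by some genes and not by others. *Hsp90ab1* was 1.91-fold higher in delta than in beta cells (95% interval 1.79 to 2.04) and 1.56-fold higher in alpha cells, while the intervals of *Dnajb1* overlapped in all 3 classes. Of the 9 genes with 100 UMIs or more, 2 were lower in alpha than in beta cells, *Hspa1a* and *Hspa1b*, against 8.06% of all 8804 genes compared, and 2 were higher, *Hspd1* and *Hspe1*, against 8.19%. With a mean over cells or with hormone UMIs left out, none was higher in alpha than in beta cells. In delta cells *Hspa1a* and *Hspa1b* were lower, against 4.14% of 8362 genes, and none was higher, against 17.6%. *Hspb1*, which had under 100 UMIs in these classes together, was 8.03-fold higher in delta than in beta cells (95% interval 4.43 to 13.9), so that its delta cell excess was present in all 3 libraries. The low *Hspa1a* and *Hspa1b* ratios came from few beta cells. Without the 5% of cells with the highest summed share of the 10 genes, the log2 ratio of alpha over beta cells turned from -3.51 to 0.73 for *Hspa1a* and from -4.05 to 0.38 for *Hspa1b*.

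**Figure D3:**
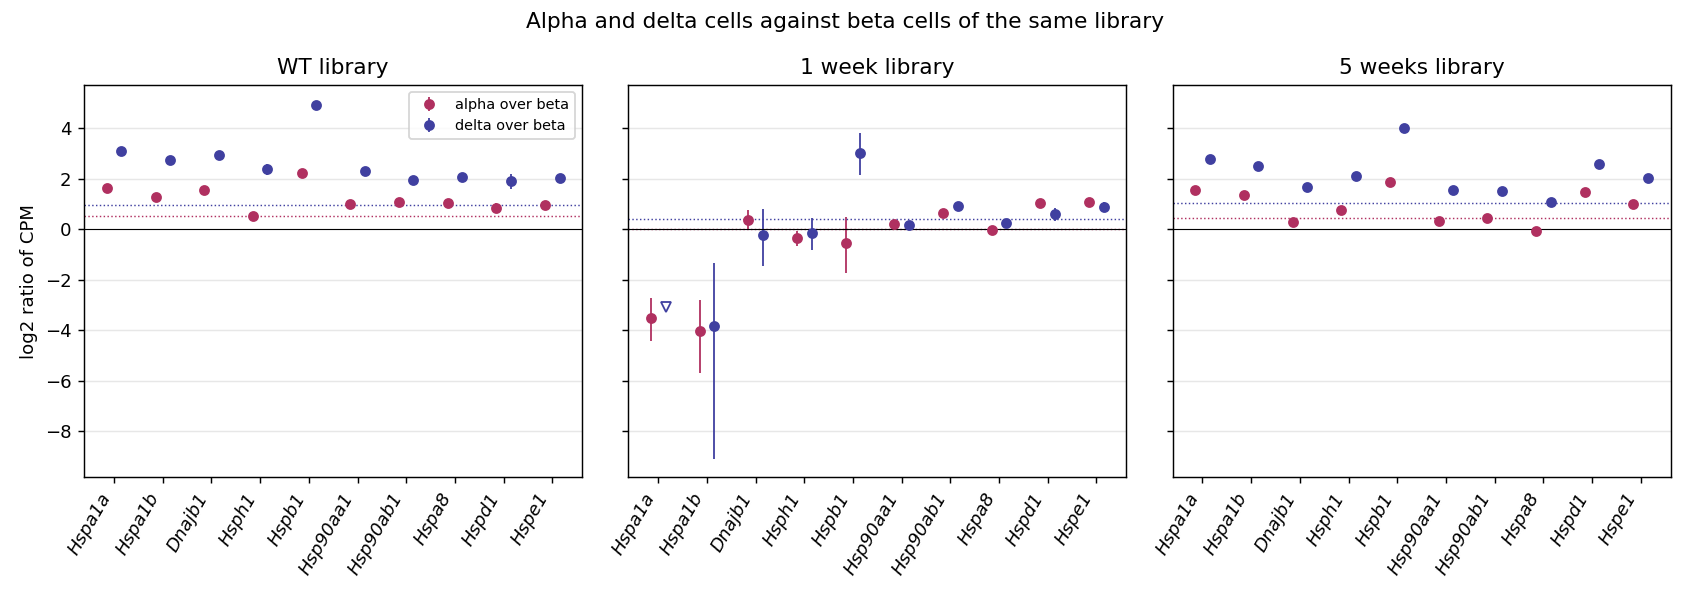
The log2 ratio of CPM in alpha cells (red) and delta cells (blue) over beta cells of the same library is plotted for the 10 genes in the library labelled WT (left), at 1 week (middle) and at 5 weeks (right), with bars for the 95% counting interval, an open triangle for a bound from 3 UMIs and dotted lines for the median of all genes. Every delta point of the WT and 5 weeks panels lies above the dotted line, and *Hspb1* is the highest delta point in each panel.

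Because depth differed between libraries, cells were also thinned to the same number of UMIs. After thinning to 5000 UMIs, which 26 WT, 561 1 week and 2073 5 weeks beta cells reached, *Hspa1a* was found in 16 of 26 cells (61.5%, 40.6 to 79.8%), 13 of 561 cells (2.32%, 1.24 to 3.93%) and 1637 of 2073 cells (79.0%, 77.1 to 80.7%). *Dnajb1* was found in 12 of 26 cells (46.2%, 26.6 to 66.6%), 40 of 561 cells (7.13%, 5.14 to 9.58%) and 1531 of 2073 cells (73.9%, 71.9 to 75.7%) in the same order. *Hspb1* was found in 10 of 26 cells (38.5%, 20.2 to 59.4%), 3 of 561 cells (0.535%, 0.110 to 1.55%) and 844 of 2073 cells (40.7%, 38.6 to 42.9%). For these genes most or many beta cells held a UMI in the library labelled WT and at 5 weeks, and few did at 1 week. *Hsp90ab1* by contrast was found in 21 of 26 cells (80.8%, 60.6 to 93.4%), 522 of 561 cells (93.05%, 90.62 to 95.01%) and 1976 of 2073 cells (95.3%, 94.3 to 96.2%), and *Hspa8* in 22 of 26 cells (84.6%, 65.1 to 95.6%), 504 of 561 cells (89.8%, 87.0 to 92.2%) and 1985 of 2073 cells (95.8%, 94.8 to 96.6%). At 1 week 79.5% of the thinned beta cells, 70.3% of alpha cells and 73.0% of delta cells held no UMI of any of the 5 inducible genes, against 7.24% of beta cells at 5 weeks and 3.85% of the 26 WT beta cells. The median beta cell held 3, 0 and 11 UMIs of the inducible genes in 5000, in the order WT, 1 week and 5 weeks. The mean count per beta cell at that depth was 1.15, 0.526 and 4.30 UMIs for *Hspa1a* and 0.769, 0.0802 and 3.57 UMIs for *Dnajb1* in the same order of libraries, so both were again lowest at 1 week. The mean of *Hsph1* was 0.308, 0.326 and 0.975 UMIs, so it was not lower at 1 week than in WT. In unthinned beta cells of at least 5000 UMIs, 3 of 9 measured genes were 2-fold or more lower at 1 week than in WT and 1 was higher. The shares of all genes are not given for that setting. The 1 week mean of *Hspa1a* rests on the 13 cells with a UMI, which held up to 83 each.

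**Figure D4:**
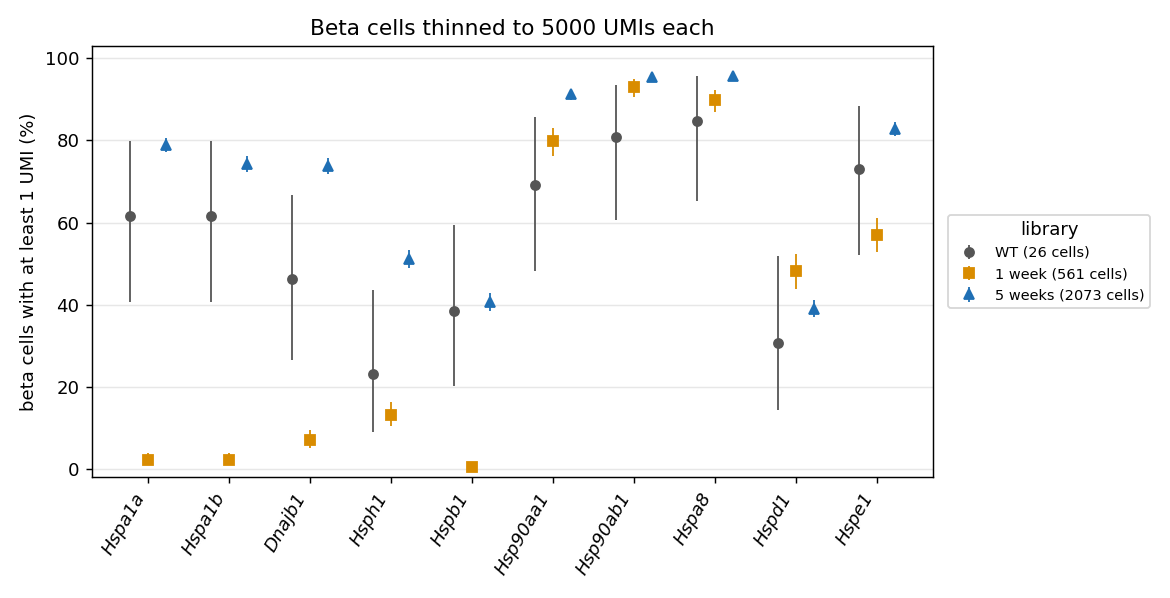
The share of beta cells with at least 1 UMI of each gene is plotted after every cell was thinned to 5000 UMIs, for 26 cells of the library labelled WT (grey circles), 561 cells at 1 week (orange squares) and 2073 cells at 5 weeks (blue triangles), with exact 95% binomial intervals. For *Hspa1a* 2.32% of the 1 week cells held a UMI, against 79.0% at 5 weeks, whereas the shares of *Hsp90ab1* and *Hspa8* were at least 80.8% in all 3 libraries.

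Most UMIs of inducible HSP70 in 1 week beta cells were held by few cells. Of 561 beta cells, 514 held no UMI of *Hspa1a* or *Hspa1b*, 40 held 1 to 9 and 7 held 10 or more, with up to 188 UMIs of *Hspa1a* in 1 cell. No alpha or delta cell held 10 or more. The 7 cells were chosen for these genes, so their *Hspa1a* level of 9161 CPM is a description. In the same 7 cells *Hspa8* stood at 6431 CPM, *Hsp90aa1* at 5251 CPM, *Hsph1* at 1567 CPM and *Hspe1* at 1373 CPM, against 871, 436, 32.9 and 189.8 CPM in the other 554. *Dnajb1* was not prominent among them, with 11 UMIs in 3 of the 7 cells (178 CPM), while *Dnaja1*, another HSP40 gene, stood at 1987 CPM. The 7 cells held 5684 to 13017 UMIs each, a median of 8386 against 25105 in the others, and their mitochondrial share was 1.10% against 3.21%. In the other 554 cells *Hspa1a* stood at 2.75 CPM, *Hspa1b* at 1.48 CPM and *Hspb1* at 0.939 CPM, beside 1 week alpha cell levels of 3.57, 1.37 and 2.47 CPM. At 5 weeks the transcripts were spread over many cells, and the 5% of beta cells with the most *Hspa1a* UMIs held 22.2% of them.

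In the library labelled WT and at 5 weeks, cells with a UMI of *Hspa1a* more often held one of *Dnajb1*. With each cell thinned to 500 UMIs, *Dnajb1* was found in 25.8% of the 856 cells with a UMI of *Hspa1a* and in 6.21% of the 7413 cells without among WT beta cells. At 5 weeks it was found in 40.1% of the 1847 cells with a UMI of *Hspa1a* and in 22.2% of the 3710 cells without among beta cells, and in 65.0% of the 967 cells with a UMI of *Hspa1a* and in 36.7% of the 275 cells without among delta cells. *Hspa8* was found at 5 weeks in 63.3% of the 1847 cells with a UMI of *Hspa1a* and in 43.2% of the 3710 cells without among beta cells. At 1 week only 6 thinned beta cells held a UMI of *Hspa1a*, too few to compare. *Dnajb1* was found in 0 of these 6 and in 3 of the 555 without. Over the 2073 beta cells of 5 weeks thinned to 5000 UMIs, which share 1 library, Pearson's r was 0.66 for *Hspa1a* with *Hspa1b*, 0.60 for *Hspa1a* with *Dnajb1*, 0.58 for *Hspa1a* with *Hspa8* and 0.46 for *Hspa1a* with *Hspb1*. It was 0.24 for *Hspa1a* with *Hspd1* and 0.19 for *Hspd1* with *Hspe1*, in genes with fewer UMIs per cell. Over the 561 beta cells of 1 week the largest value among the pairs computed was 0.58, for *Hsp90ab1* with *Hspa8*.

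The summed level of the genes was also compared with depth inside each class. The summed CPM of the 10 genes was 2798, 6695 and 19270 in WT beta, alpha and delta cells, 2621, 3413 and 3784 at 1 week, and 7619, 13288 and 32985 at 5 weeks. With the cells of a class split by depth into 3 equal parts, it went from shallow to deep cells from 3152 to 2675 in WT beta cells, from 4287 to 1892 in 1 week beta cells and from 11107 to 6504 in 5 weeks beta cells. In 1 week alpha cells it was 3476, 3283 and 3480.4 from shallow to deep, and in 1 week delta cells 3414, 4160.3 and 3666, so it did not run downward there. The beta cells of 5 weeks with a median of 2117 UMIs thus stood above the WT beta cells on either side of that depth, at 1656 and 2814 UMIs with 2769.6 and 2675 CPM. At 1 week *Hspa1a* was at 274 CPM in the shallow part and at 1.29 and 1.84 CPM in the others. Barcodes of 1 week outside the classes with under 5000 UMIs, a depth nearer to that of the other libraries, gave 21.5 CPM of *Hspa1a*, 7.01 CPM of *Hspb1* and 602 CPM of *Hsp90ab1*. Their *Hspa1a* and *Hspb1* levels were below those of every class of the library labelled WT. All 1524 unclassed barcodes of 1 week had 11.6% mitochondrial UMIs, against 3.20%, 3.11% and 4.48% in the beta, alpha and delta classes. Hormone UMIs made up 13.3% of their total. They may thus differ from classed cells in more than depth, and their makeup was not tested.

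**Figure D5:**
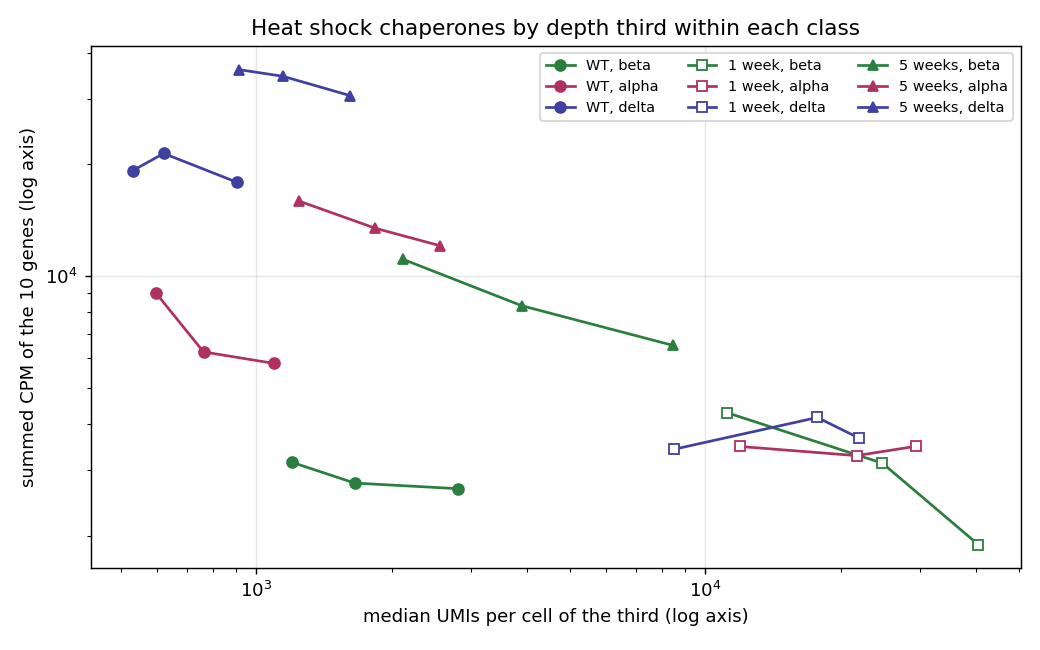
The summed CPM of the 10 genes is plotted against the median UMIs per cell (both log axes) for the shallow, middle and deep parts of beta (green), alpha (red) and delta (blue) cells in the library labelled WT (filled circles), at 1 week (open squares) and at 5 weeks (filled triangles). Within beta cells the line runs downward in each library, and the 5 weeks line of each class lies above the WT line.

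Other stress genes were described from lists for comparison. Of 35 further HSF1-linked and co-chaperone genes, 8 of 34 with enough UMIs were 2-fold or more higher at 5 weeks than in WT beta cells and none was lower, against 6.09% and 4.38% of all genes, with a median log2 ratio of 0.54. Among them *Dnaja1* was 4.38-fold higher, *Dnaja4*, another HSP40 gene, 3.82-fold, and *Bag3*, an HSP70 co-chaperone, 2.71-fold. At 1 week 16 of 32 were higher and none lower, against 57.7% and 2.46% of all genes, with a median of 1.00 beside 1.15 for all genes. In alpha cells 4 of 29 and in delta cells 3 of 16 were lower at 1 week, against 4.88% and 5.42% of all genes. Higher were 5 of 29 in alpha and 2 of 16 in delta cells, against 32.4% and 20.4% of all genes. The median log2 ratio of the list was 0.41 in alpha and -0.11 in delta cells, beside 0.63 and 0.33 for all genes. *Hsf1* itself stood at 5.49, 19.1 and 8.09 CPM in beta cells of the library labelled WT, 1 week and 5 weeks. The cytosolic chaperonin, which folds actin and tubulin, had 7 measured subunits of 8 listed. In beta cells all 7 were higher at 1 week, as were 57.7% of all genes, with a median log2 ratio of 1.76, and none passed 2-fold at 5 weeks, with a median of 0.63.

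ER chaperones, which fold secreted proteins, and immediate early genes were described in the same way. Of 14 ER chaperones in beta cells, 3 were higher and 1 lower at 1 week and 1 was higher at 5 weeks. Of all genes 57.7% were higher and 2.46% lower at 1 week and 6.09% higher at 5 weeks, so the share of ER chaperones that was higher at 1 week was under that of all genes. *Hspa5*, the ER HSP70, stood at 373, 1531 and 1411 CPM in beta cells of the library labelled WT, 1 week and 5 weeks. It was thus higher at 1 week than in the library labelled WT, whereas *Hspa1a* was lower. *Manf*, an ER stress-induced gene, was the 1 that was lower at 1 week, at a log2 ratio of -1.11. Immediate early genes, which respond within minutes to many stimuli including tissue dissociation, were also listed. Of 13 listed, 7 were lower and 1 higher at 1 week in beta cells, and 12 were higher and none lower at 5 weeks, beside the same shares of all genes and 4.38% lower at 5 weeks. *Fos* stood at 212, 13.4 and 1399 CPM in beta cells, *Fosb* at 112, 1.67 and 296 CPM and *Egr1* at 141, 17.4 and 564 CPM. In delta cells 5 of 8 were lower at 1 week and 6 of 13 higher at 5 weeks, against 5.42% and 4.87% of all genes. The part of dissociation and handling in the differences between libraries was not tested.

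The genes most like each member were sought over the 9 sums of class and library among 10945 genes, by Pearson's r of log2(CPM + 10). The 9 sums share 3 libraries, and a likeness says nothing of shared function. *Hspa1a* was most like *Hspa1b* (0.996), *Dnajb1* (0.977) and *Nr4a1* (0.966), the last an immediate early gene. *Dnajb1* was most like *Fosb* (0.986), *Hspa1b* (0.984) and *Dusp1* (0.983), *Hsph1* like *Nr4a1* (0.987), *Dnaja4* (0.975) and *Ubb* (0.973), and *Hspb1* like *Nr4a1* (0.980), *Rhob* (0.970) and *2310039H08Rik* (0.966). *Hspa1b* was most like *Hspa1a* (0.996), *Dnajb1* (0.984) and *Fosb* (0.974). Each of the 5 inducible genes thus had *Nr4a1* or *Fosb*, both immediate early genes, among its nearest 3. *Hsp90aa1* was most like *Tubgcp4* (0.979), *1810055G02Rik* (0.969) and *Dnaja4* (0.963). *Hspa8* was most like *Hsp90aa1* (0.954), *Jund* (0.936) and *Lars2* (0.935), and *Hspe1* like *Rhob* (0.970), *Jun* (0.968) and *Chchd2* (0.965). *Hspd1*, with *Ehd4* (0.983), *Ccdc77* (0.966) and *Klf7* (0.963), and *Hsp90ab1*, with *Btaf1* (0.958), *Mrps17* (0.953) and *P4ha1* (0.951), like *Hsph1*, *Hspb1*, *Hsp90aa1* and *Hspe1*, had no other of the 10 genes among the nearest 3.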

How the data were processed

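Per the labels and the submitters' processing notes, the authors demultiplexed reads with bcl2fastq 2.17.1.14, aligned them to mm10 and counted UMIs with Cell Ranger 3.1, and used Seurat 3.1.4. The deposited files hold raw UMI counts per gene and cell, not normalised, for 12000, 2295 and 11229 barcodes (WT, 1 week, 5 weeks). The study scaled the WT sample to the 12000 cells. On the WT sample alone it removed cells with several hormones by hand and then ran its doublet caller.

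Here cells were classed by hormone share of UMIs. Beta cells had at least 20% *Ins2* and at most 3% *Gcg*, alpha cells at least 15% *Gcg* and at most 10% *Ins2*, and delta cells at least 5% *Sst*. At 1 week the minima were 5, 8 and 1.5%, with at least 5000 UMIs. Cells meeting 2 rules were left out (2, 1 and 201 cells) and no doublets were called. Counts were summed per class and library and divided by all UMIs (CPM). Levels carry exact Poisson, ratios exact conditional and shares exact Clopper-Pearson 95% intervals, which cover counting error only. A gene with 0 UMIs was set to 3 UMIs to give a bound. Genes with at least 100 UMIs in both groups together were compared, and 2-fold was the limit. Cells were thinned to 500 or 5000 UMIs at random, leaving out shallower ones. With 1 library per condition no test was made. Named genes are the 10 members, members of the lists, and for each member the 3 genes with the highest Pearson's r of log2(CPM + 10) over the 9 sums. Calculations used Python 3.11.15, numpy 2.4.6 and scipy 1.17.1, with figures from matplotlib 3.10.9, and the scripts were tested on simulated data. The alternatives left out hormone or mitochondrial UMIs, averaged over cells, thinned cells, or moved the class, depth, cell quality and fold limits. The members and lists were chosen with earlier results of these data known.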

Additional observations from a re-analysis of the deposited data

Results flagged for a closer look

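*Hspa8*, the constitutive HSP70, had opposite directions in 2 cell classes at 1 week. Its log2 ratio to the library labelled WT was 0.88 in beta cells and -0.94 in delta cells. The difference between the classes was not tested, since each rests on 1 library per condition, and with hormone UMIs left out of the totals the values were 0.05 and -1.21.

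Cells that met no class rule, which enter none of the comparisons, also had higher point values of all 10 genes at 5 weeks than in the library labelled WT. For 6 of them the lower 95% counting bound at 5 weeks was over 2 times the upper bound in the library labelled WT. In these cells *Hspa1a* was at 2217 CPM at 5 weeks and 632 CPM in the library labelled WT. *Dnajb1* was at 1078 and 432 CPM, and *Hsph1* at 396 and 143 CPM. *Hsp90aa1* was at 1899.6 and 551 CPM, *Hsp90ab1* at 1949 and 673 CPM, and *Hspa8* at 1895 and 728 CPM. These cells are a mixture of 1291 barcodes at 5 weeks and 338 in the library labelled WT, and their makeup was not compared.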

How the results depend on the processing

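No paired analysis was possible because each condition had 1 library, and no library could be left out for the same reason. Of 15 counts of the 10 genes past 2-fold, all 15 stayed within 1.5 times with mitochondrial UMIs left out, with a mean over cells and with no minimum of UMIs. These counts pool higher and lower genes, so directions could change within a count. With a mean over cells, alpha over beta cells at 1 week had 0 genes higher and 3 lower in place of 2 and 2. Shares of all genes past 2-fold are given for the main setting only. With hormone UMIs left out, 4 counts moved: alpha over beta cells from 6 to 1 in the library labelled WT, from 4 to 2 at 1 week and from 5 to 1 at 5 weeks, and delta over beta cells from 10 to 5 at 5 weeks. Thinned to 500 UMIs, the counts at 1 week went from 4 to 1 in alpha and from 2 to 0 in delta over beta cells, with 4 and 3 genes measured. With the 1 week classes set by the limits of the other libraries in all barcodes, delta over beta cells at 1 week gave 5 in place of 2. With cells that met 2 rules counted in each class, 5 weeks over WT in delta cells gave 2 in place of 4. A limit of 1.5-fold gave 8 in place of 5 in alpha and 8 in place of 4 in delta cells for 5 weeks over WT, and 5 in place of 2 for delta over beta cells at 1 week. Without the 5% of cells with the highest summed share of the 10 genes, an alternative chosen after seeing the data, alpha over beta cells at 1 week gave 2 in place of 4 and delta over beta cells 1 in place of 2. In that setting log2 ratios reversed for *Hspa1a* (0.73 in place of -3.51) and *Hspa1b* (0.38 in place of -4.05) in alpha over beta cells, and for *Hspa1b* in delta over beta cells (0.61 in place of -3.82), all at 1 week. The cause of these moves was not tested beyond what each setting leaves out. A minimum of 5000 UMIs in every library gave no value for 8 comparisons with WT alpha, WT delta or 5 weeks delta cells, and a limit of 200 to 1500 detected genes with under 15% mitochondrial UMIs gave none for 8 comparisons with the 1 week library, since under 20 cells remained. In the 7 comparisons each of these left, every count stayed within 1.5 times.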
